A study of Homo sapiens with 12 samples.

Results

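The 10 genes described here were AKR1C1, AKR1C2, AKR1C3 and AKR1B10, which encode aldo-keto reductases, and NQO1, GCLM, GCLC, TXNRD1, SRXN1 and HMOX1, which are widely used as readouts of the transcription factor NRF2. They were taken by gene name from the count tables of both cell lines, joined by Ensembl identifier, and all 10 were found among the 30358 genes that both tables list. PTDSS1 makes phosphatidylserine, a membrane phospholipid, and PTDSS1i is a small molecule that inhibits it. KYSE30 is a line of esophageal squamous cell carcinoma, and U138MG is used by the study as a model of glioblastoma. Poly-A RNA was sequenced from cultures of each line, wild type by their labels, which were kept in DMSO, the solvent, or in 100 nM PTDSS1i over 48 h. Each of the 4 groups had 3 cultures, 12 libraries in all, and the labels place each line in a batch of its own, so that line and batch cannot be told apart. The p-values below measure the spread between these cultures.

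NRF2, encoded by NFE2L2, is held in the cytoplasm by KEAP1, which hands it to a ubiquitin ligase for destruction. Oxidants and electrophiles modify KEAP1, and the NRF2 that escapes pairs with a small MAF protein on antioxidant response elements, short motifs near genes for glutathione synthesis, thioredoxin reduction, NADPH supply and detoxification. BACH1 competes for the same motifs as a repressor, above all at HMOX1. Aldo-keto reductases use NADPH to reduce aldehydes and ketones, the AKR1C enzymes acting on steroids, prostaglandins and lipid aldehydes, and AKR1B10 on retinal and lipid aldehydes. Squamous carcinomas are known for frequent activation of this pathway.

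The sequences of the AKR1C genes are shown first because they are so alike that reads can be hard to assign among them. AKR1C1 and AKR1C2 differ at 19 of 972 coding bases, an identity of 98.05%, and AKR1C3 is 91.46% identical to AKR1C1 and 91.05% to AKR1C2. In the following 60 coding bases, positions 1 to 60 counted from the start codon in the GENCODE transcripts, capitals mark the 8 positions at which the 3 genes are not all the same.
AKR1C1: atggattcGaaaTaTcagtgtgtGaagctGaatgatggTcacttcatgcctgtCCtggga
AKR1C2: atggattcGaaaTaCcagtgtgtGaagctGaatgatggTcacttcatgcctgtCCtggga
AKR1C3: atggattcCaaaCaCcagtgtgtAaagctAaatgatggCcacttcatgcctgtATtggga
In this stretch AKR1C1 and AKR1C2 differ at 1 base. The stretch in which they differ most, coding positions 103 to 162, has 10 such differences and 15 positions at which the 3 genes are not all the same, again in capitals.
AKR1C1: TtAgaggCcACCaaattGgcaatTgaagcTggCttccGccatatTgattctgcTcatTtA
AKR1C2: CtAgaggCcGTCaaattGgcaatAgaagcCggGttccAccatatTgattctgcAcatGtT
AKR1C3: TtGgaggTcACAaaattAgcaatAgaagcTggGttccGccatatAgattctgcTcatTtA
Of all 50-base stretches of the AKR1C2 transcript, 50.82% occur unchanged in AKR1C1, and 20.6% of its 150-base stretches do, so the split of counts between these genes is uncertain. AKR1B10 shares no 50-base stretch with the AKR1C genes or with AKR1B1, to which its coding sequence is 75.29% identical. With AKR1B15 it shares 11.55% of its 50-base stretches and 1.14% of its 100-base stretches.

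The start sites were searched for the core of the antioxidant response element, TGACNNNGC, on both strands, in the RefSeq promoters of GRCh38.p14, which run from 250 bases before to 50 bases after a gene's start. The tables hold 10 promoters of 8 of the genes, with no entry for AKR1B10 and HMOX1, and 3 of these 10 held the motif, as did 13.3% of all 35116 promoters. Matches lay before the start of GCLM and before both starts of TXNRD1, and they are printed with 10 or 11 bases on either side and the motif in capitals.
GCLM, minus strand, chr1:93909445-93909474, 34 bases before the start: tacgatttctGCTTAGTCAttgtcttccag
TXNRD1, plus strand, chr12:104215670-104215699, 99 bases before the start: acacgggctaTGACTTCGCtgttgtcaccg
TXNRD1, plus strand, chr12:104286920-104286949, 102 bases before its other start: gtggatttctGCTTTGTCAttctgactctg
A further match, 8 bases before the first of these TXNRD1 starts, is not printed. The remaining promoters of the genes did not hold these letters in this window. Of the 250 bases before the starts of AKR1C1 and AKR1C2, 246 could be aligned and 245 were identical, 99.6%.

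The libraries held from 18800932 to 26514658 counts. Levels are given as CPM, the count of a gene relative to 1e6 counts of the library, and 3 counts, the level that a count of 0 still allows, correspond to 0.113 to 0.160 CPM. These limits cover counting error only. Fold changes come from edgeR's quasi-likelihood test after TMM scaling, with p-values adjusted by Benjamini and Hochberg over 16389 genes in KYSE30 and 17666 in U138MG and a threshold of 0.05. TMM left the median log2 fold change of all genes tested near 0, at -0.03 in each line, whereas scaling by library total alone put it at -0.13 in KYSE30 and -0.17 in U138MG, and upper-quartile scaling at -0.05 and -0.17. With TMM 4927 genes were higher and 5238 lower in KYSE30, and with library totals 3932 and 6460. In U138MG the split was 5990 higher and 5927 lower with TMM and 4539 and 7680 with library totals. In bulk libraries a change in RNA per cell and a change in the share of cells that carry it cannot be told apart.

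The libraries labelled U138MG had few or no counts of the glial markers examined. The glial marker GFAP had a mean of 2.36 CPM in their DMSO group, S100B and OLIG2 had no counts, and vimentin (VIM), abundant in glioblastoma lines, had 0.206 CPM. Of the mesenchymal and glial list 5 of 10 genes passed 1 CPM, with SPARC at 713, FN1 at 75.8, COL1A1 at 54.5 and CDH2 at 11.9 CPM. The epithelial markers KRT5, KRT15, CDH1 and EPCAM had 1470, 4861, 463 and 248 CPM, and 7 of the 8 epithelial and squamous markers passed 1 CPM. These libraries are named by their label below, without a statement on the tissue they came from. In KYSE30 6 of the 8 epithelial markers passed 1 CPM, with TP63 at 98.2 CPM and CDH1 at 514 CPM, while KRT5 was at 0.0608 CPM. The summed level of the epithelial list was 1258 to 1305 CPM with DMSO and 1839 to 1847 CPM with PTDSS1i in KYSE30, and 7770 to 8588 CPM against 3050 to 3203 CPM in U138MG. The list of mesenchymal and glial genes summed to 98.6 to 150 CPM against 87.2 to 91.4 CPM in KYSE30 and 844 to 876 CPM against 453 to 467 CPM in U138MG, and the blood and endothelial list to 0.296 to 0.754 against 0.646 to 0.979 CPM and 35.1 to 42.4 against 102 to 110 CPM. Single genes weigh heavily in these sums, and others moved against them. In U138MG mean KRT15 went from 4861 to 458 CPM but SFN from 282 to 1064 CPM. CD68 went there from 28.4 to 103 CPM but VWF from 10.7 to 2.15 CPM. In KYSE30 mean FN1 went from 98.3 to 37.4 CPM but VIM from 3.99 to 24.6 CPM. The part of these marker shifts in the results below was not tested.

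With PTDSS1i most of the 10 genes rose in the libraries labelled U138MG, as did most of those that could be tested in KYSE30. The genes were chosen with earlier results of these data known, so their counts in both lines are a description. In U138MG all 10 genes were tested, 8 were higher and 1, GCLC, was lower, beside 33.9% of all genes tested that were higher and 33.6% that were lower. Beyond a log2 fold change of 1 there were 7 higher and 0 lower members, beside 8.19% and 11.6% of all genes. The treatments did not overlap in normalized CPM for 9 of the 10, AKR1C3 being the exception, beside 71.4% of all genes.

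In KYSE30 only 7 of the 10 passed the filter on low counts, and 6 of these were higher and 1, SRXN1, was lower, beside 30.1% and 32.0% of all genes tested. Beyond a log2 fold change of 1 there were 4 higher members and 0 lower, beside 6.40% and 7.04% of all genes. The treatments did not overlap in normalized CPM for the 7 tested, beside 66.3% of all genes. AKR1C2 passed the filter only through its PTDSS1i libraries, so its place in these counts carries no weight. Of the 6 members with at least 10 counts in every KYSE30 library, 5 were higher, 3 of them beyond a log2 of 1, 1 was lower, and the treatments did not overlap for the 6. The call of SRXN1 was lost under several settings given with its values.

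**Figure D1:**
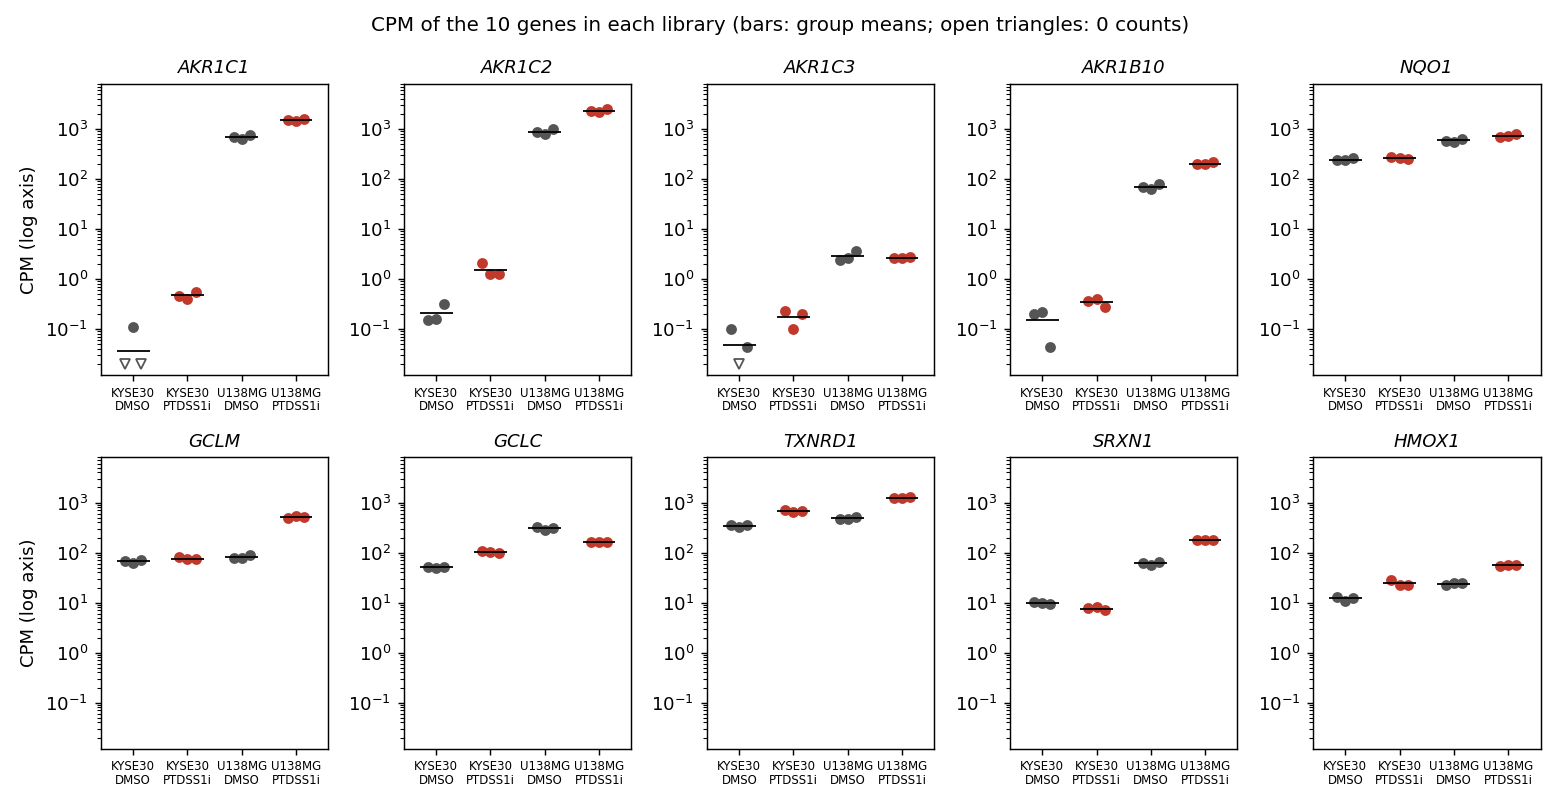
CPM of each of the 10 genes in each of the 12 libraries, on log axes, with DMSO in grey, PTDSS1i in red, bars at the means of the 3 libraries and open triangles for libraries with 0 counts. The aldo-keto reductases lie at or below 2.05 CPM in every KYSE30 library, while the other 6 genes are well counted in both lines.

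The aldo-keto reductases AKR1C1 and AKR1C2 reduce steroids and lipid aldehydes, and they lie side by side with AKR1C3 on chromosome 10 of GRCh38. AKR1C1 spans 4963253 to 4983283 on the plus strand, AKR1C2 4987400 to 5018031 on the minus strand and AKR1C3 5035354 to 5107686 on the plus strand. AKR1C1 had 701, 634 and 760 CPM in the U138MG DMSO libraries and 1468, 1401 and 1602 CPM in the PTDSS1i libraries. All PTDSS1i libraries were above all DMSO libraries, with a log2 fold change of 1.24 (SE 0.087, n = 3 and 3, edgeR adjusted p = 7.78e-05). AKR1C2 had 852, 771 and 975 CPM with DMSO and 2269, 2217 and 2479 CPM with PTDSS1i. Its groups were also apart, with a log2 fold change of 1.57 (SE 0.107, edgeR adjusted p = 1.61e-04).

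AKR1C3, which makes active androgens and prostaglandin F, did not follow its neighbours in U138MG. Its DMSO libraries had 2.40, 2.56 and 3.56 CPM and its PTDSS1i libraries 2.59, 2.63 and 2.79 CPM, so that the treated values lay inside the range of the controls. The log2 fold change was 0.06 (SE 0.207, edgeR adjusted p = 0.823), and its sign turned to -0.09 with library totals and with upper-quartile scaling, -0.04 without DMSO replicate 1 and -0.02 without DMSO replicate 2, and the value was 0.25 without DMSO replicate 3. The 3 AKR1C genes together took 0.141 to 0.174% of all counts with DMSO and 0.362 to 0.409% with PTDSS1i. Counted as a single feature, which sets the split of shared reads aside, they rose by a log2 of 1.43 (SE 0.0976, edgeR adjusted p = 1.14e-04).

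The balance within the pair moved as well. The ratio of AKR1C2 to AKR1C1 counts was 1.22, 1.22 and 1.28 in the U138MG DMSO libraries and 1.55, 1.58 and 1.55 in the PTDSS1i libraries. The ranges were apart, and an exact two-sided permutation test of 3 against 3 libraries cannot give a p below 0.1. Whether reads shared by the pair were counted for AKR1C1, for AKR1C2 or for neither is not stated.

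AKR1B10, a reductase of retinal and lipid aldehydes, lies at 134527592 to 134541408 on the plus strand of chromosome 7. It had 67.5, 61.4 and 79.0 CPM in the U138MG DMSO libraries and 197, 195 and 215 CPM with PTDSS1i. Its groups were apart, with a log2 fold change of 1.69 (SE 0.103, edgeR adjusted p = 4.96e-05). It shares no 50-base stretch with the AKR1C genes, and AKR1B15, with which it shares some, had 20 counts over the U138MG DMSO libraries and 154 over the PTDSS1i libraries.

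In KYSE30 these reductases were close to the limit of detection. AKR1C1 had 0, 2 and 0 counts in the DMSO libraries and 10, 8 and 14 counts in the PTDSS1i libraries, or 0.445, 0.398 and 0.555 CPM with PTDSS1i. The summed counts of 2 and 32 gave a ratio of 14.5 per library total, with a 95% exact interval of 3.71 to 125 that covers counting error only. AKR1C2 had 0.148, 0.160 and 0.310 CPM against 2.05, 1.24 and 1.27 CPM, or 13 against 103 counts. The ratio was 7.20 with an interval of 4.03 to 14.0, which again covers counting error only. Because AKR1C2 entered the edgeR fit through its PTDSS1i libraries alone, its fitted log2 fold change of 2.92 is a description, and no p is given for it.

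AKR1C3 had 3 counts over the KYSE30 DMSO libraries and 12 over the PTDSS1i libraries, a ratio of 3.63 with an interval of 0.981 to 20.1. AKR1B10 had 9 and 23 counts, a ratio of 2.32 with an interval of 1.04 to 5.70. Neither was tested by edgeR, and nor was AKR1C1. The 3 AKR1C genes counted as a single feature had 0.247 to 0.355 CPM with DMSO and 1.74 to 2.72 CPM with PTDSS1i, a fitted log2 difference of 2.97. This feature too passed the filter only through the PTDSS1i libraries, so no p is given for it.

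The low levels of the reductases in KYSE30 stand beside that of another gene. CDC42, a GTPase that nearly every cell expresses, had a mean of 0.503 CPM in the KYSE30 DMSO libraries and 453 CPM in those of U138MG. The tables of the lines list different numbers of genes, 30984 and 78691, and of the 6 genes annotated over the AKR1C locus the KYSE30 table lists 3. No gene listed there had more than 46 counts in a KYSE30 library, that highest count being of AKR1C2. Whether the counting of the KYSE30 reads plays a part in the low AKR1C and AKR1B10 levels was not tested.

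The subunits of glutamate-cysteine ligase, the enzyme that sets the pace of glutathione synthesis, went in different directions in U138MG. GCLM, its modifier subunit, lies at 93885205 to 93909456 on the minus strand of chromosome 1. It had 78.6, 78.6 and 87.5 CPM with DMSO and 497, 538 and 504 CPM with PTDSS1i in U138MG, with no value in between. The log2 fold change of 2.80 (SE 0.043, edgeR adjusted p = 9.25e-26) was the largest of the 10 genes in that line.

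GCLC, the catalytic subunit, lies at 53497341 to 53616970 on the minus strand of chromosome 6. In U138MG it fell from 318, 284 and 314 CPM to 161, 163 and 162 CPM. All treated libraries were below all controls, with a log2 fold change of -0.77 (SE 0.039, edgeR adjusted p = 8.85e-16). Of its annotated exon bases 6.12% are shared with AL033397.1, a non-coding gene on the same strand that had 3573 counts over the U138MG libraries.

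In KYSE30 both subunits rose, GCLC by more than GCLM. GCLC had 51.9, 48.7 and 51.8 CPM with DMSO and 107, 102 and 99.4 CPM with PTDSS1i, a log2 fold change of 1.12 (SE 0.058, edgeR adjusted p = 3.35e-13). GCLM had 69.1, 61.9 and 70.0 CPM against 80.5, 72.9 and 74.0 CPM, a log2 fold change of 0.28 (SE 0.064, edgeR adjusted p = 6.93e-04). The groups of both genes were apart, GCLC by a wide gap and GCLM by a narrow one.

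The interaction of line and treatment, tested over 18405 genes, was called for both subunits, in opposite directions. The log2 change of GCLM was larger in U138MG by 2.47 (SE 0.084, edgeR adjusted p = 2.08e-18). That of GCLC was smaller there, with a difference of -1.94 (SE 0.073, edgeR adjusted p = 6.39e-20). Per kb of exon the order of the subunits turned in U138MG, where GCLC was at 32.8 to 36.8 CPM per kb and GCLM at 14.5 to 16.1 with DMSO, and GCLC at 18.6 to 18.8 and GCLM at 91.6 to 99.3 with PTDSS1i. In KYSE30 GCLM stayed above GCLC, at 11.4 to 12.9 against 5.63 to 6.00 CPM per kb with DMSO and 13.4 to 14.9 against 11.5 to 12.4 with PTDSS1i. Without division by length GCLC was above GCLM in KYSE30 with PTDSS1i, at means of 102.7 against 75.8 CPM. The order in KYSE30 thus depends on the exon lengths used.

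TXNRD1, the thioredoxin reductase of the cytosol, rose in both lines. It lies at 104215779 to 104350305 on the plus strand of chromosome 12. In KYSE30 it had 352, 320 and 354 CPM with DMSO and 705, 653 and 678 CPM with PTDSS1i, and in U138MG 477, 466 and 509 CPM against 1233, 1231 and 1294 CPM. The groups were apart in both lines, with log2 fold changes of 1.09 (SE 0.059, edgeR adjusted p = 6.06e-13) and 1.52 (SE 0.037, edgeR adjusted p = 5.13e-24). The change was larger in U138MG by a log2 of 0.37 (SE 0.073, edgeR adjusted p = 7.17e-05).

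SRXN1, sulfiredoxin, restores overoxidized peroxiredoxins, and it lies at 646615 to 653370 on the minus strand of chromosome 20. In U138MG it had 60.6, 57.5 and 63.8 CPM with DMSO and 179, 178 and 175 CPM with PTDSS1i. The groups were far apart, with a log2 fold change of 1.70 (SE 0.041, edgeR adjusted p = 4.25e-24). The annotation puts 84.95% of its exon bases also in AL121758.1 on the same strand, which had 0 counts over the U138MG libraries and was not analysed in KYSE30.

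In KYSE30 SRXN1 was lower in every treated library, with 10.1, 9.63 and 9.26 CPM against 7.70, 8.00 and 7.09 CPM. The log2 fold change was -0.25 (SE 0.106, edgeR adjusted p = 0.0497), just past the threshold. The call was lost with DESeq2 (-0.23), without the filter on low counts (-0.26), with a stricter filter (-0.24) and without any single library, the values then lying between -0.29 and -0.19. The difference between the lines, a log2 of 1.89 (SE 0.099, edgeR adjusted p = 2.65e-16), kept its call under the alternatives tried.

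HMOX1 breaks heme down to biliverdin, carbon monoxide and iron, and it lies at 35380361 to 35394214 on the plus strand of chromosome 22. In KYSE30 it had 13.1, 10.9 and 12.3 CPM with DMSO and 28.7, 22.4 and 22.0 CPM with PTDSS1i, and in U138MG 22.8, 24.4 and 24.5 CPM against 53.2, 56.6 and 56.5 CPM. Treated and control libraries were apart in both lines, with log2 fold changes of 1.11 (SE 0.113, edgeR adjusted p = 2.64e-07) and 1.36 (SE 0.057, edgeR adjusted p = 2.64e-18). The difference between the lines was 0.20 on the log2 scale (SE 0.131, edgeR adjusted p = 0.227). It passed the threshold without the filter on low counts (0.27) and without PTDSS1i replicate 1 of KYSE30 (0.34), the treated library with the highest HMOX1 level in that line.

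NQO1, which reduces quinones in a single step that avoids radicals, had the smallest rise of the genes that were called higher in each line. It lies at 69706996 to 69726951 on the minus strand of chromosome 16, and 17.67% of its exon bases are shared with the antisense gene AC092115.2, which had 853 counts over the U138MG libraries. In U138MG its level was 579, 557 and 622 CPM with DMSO and 701, 703 and 777 CPM with PTDSS1i, groups that were apart, with a log2 fold change of 0.46 (SE 0.048, edgeR adjusted p = 1.68e-06). In KYSE30 it had 240, 234 and 255 CPM against 273, 256 and 250 CPM. These CPM values overlapped, and only after TMM scaling were the groups apart, with a log2 fold change of 0.20 (SE 0.054, edgeR adjusted p = 2.98e-03) that was not called with library totals (0.10).

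**Figure D2:**
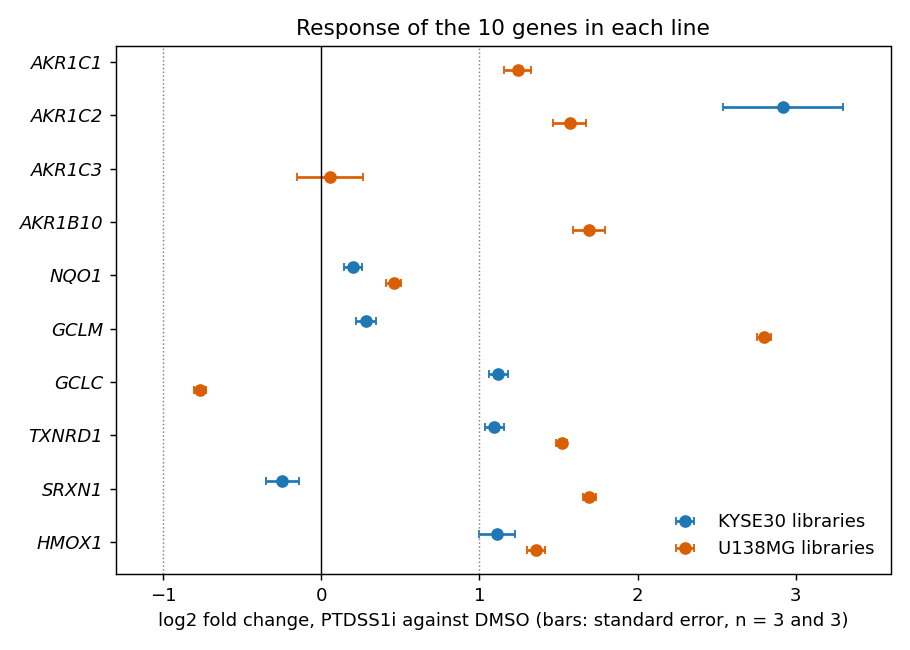
Log2 fold changes of PTDSS1i against DMSO in KYSE30 (blue) and U138MG (orange) with standard errors derived from edgeR's F statistic, and dotted lines at a log2 of 1 in either direction. AKR1C1, AKR1C3 and AKR1B10 have no KYSE30 point because they were not tested there, and the KYSE30 point of AKR1C2 rests on 13 DMSO counts. GCLC and SRXN1 lie on opposite sides of 0 in the 2 lines.

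The difference between the lines was called for 6 of the 10 genes, beside 50.2% of all genes tested, so the share is near the background. It was called for 5 of the 6 members with at least 10 counts in every library. Besides GCLM, GCLC, TXNRD1 and SRXN1 the called genes were NQO1, at a log2 of 0.21 (SE 0.075, edgeR adjusted p = 0.0222), and AKR1C1, at -2.55. The call of NQO1 was lost with upper-quartile scaling (0.11) and when any of 6 libraries was left out, namely KYSE30 DMSO 1 and 3, KYSE30 PTDSS1i 2 and 3, U138MG DMSO 2 and U138MG PTDSS1i 3, with values between 0.16 and 0.20. The value of AKR1C1 rests on the 2 counts of the KYSE30 DMSO libraries. It was -5.26 with KYSE30 DMSO 2 left out, the library that holds them, a value fitted against libraries at 0 and therefore no bound. Its call was lost when KYSE30 DMSO 1 (-2.07), KYSE30 DMSO 3 (-1.97) or KYSE30 PTDSS1i 3 (-2.39) was left out. For AKR1C2, AKR1C3 and AKR1B10 the differences of -1.40, -1.84 and 0.36 were not called. That of AKR1C2 was called when any of 5 libraries was left out, namely KYSE30 PTDSS1i 2 and 3, U138MG DMSO 2 and 3 and U138MG PTDSS1i 3, with values between -1.52 and -1.31, and that of AKR1C3 without KYSE30 DMSO 1 (-2.72) or KYSE30 PTDSS1i 2 (-2.08).

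With DMSO alone all 10 genes were called higher in U138MG than in KYSE30, beside 40.7% of all genes that were called higher and 85.0% that differed in either direction. The 4 reductases had under 10 counts in every KYSE30 DMSO library and passed the filter through other groups, where they were high, so the count is best read over the 6 members with at least 10 counts in every library, of which 6 were higher. GCLC and SRXN1 had log2 differences of 2.54 (SE 0.054, edgeR adjusted p = 3.03e-28) and 2.60 (SE 0.066, edgeR adjusted p = 4.54e-26). NQO1 and HMOX1 were higher by 1.22 and 0.93, TXNRD1 by 0.45 and GCLM by 0.23, the smallest of the differences (SE 0.061, edgeR adjusted p = 1.04e-03). The tables of the lines list different numbers of genes, and the part of the counting in these differences was not tested. AL033397.1, which shares exon bases with GCLC, had 4 counts over the KYSE30 libraries and 3573 over those of U138MG. For the 4 reductases no fold is given between the lines, because their KYSE30 DMSO libraries held 2 to 13 counts in all. Their means were 0.0355, 0.206, 0.0477 and 0.152 CPM for AKR1C1, AKR1C2, AKR1C3 and AKR1B10 in KYSE30 and 698, 866, 2.84 and 69.3 CPM in U138MG.

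Levels of different genes can be set side by side only per length, here as CPM per kb of the union of annotated exons, which counts exons that these cells may not use. In the KYSE30 DMSO libraries NQO1 led at 74.7 CPM per kb, followed by TXNRD1 at 51.0, GCLM at 12.4, GCLC at 5.88, HMOX1 at 5.03 and SRXN1 at 3.59. The reductases came last, AKR1B10 at 0.0869, AKR1C2 at 0.0319, AKR1C3 at 0.0105 and AKR1C1 at 0.00405 CPM per kb. The ranges of AKR1B10 and AKR1C2 overlapped, as did those of AKR1C3 and AKR1C1.

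AKR1C2 and AKR1C1 came next to NQO1 in the U138MG DMSO libraries, and AKR1C3 came last. NQO1 led at 180 CPM per kb, followed by AKR1C2 at 134, AKR1C1 at 79.7, TXNRD1 at 72.1, AKR1B10 at 39.7, GCLC at 35.3, SRXN1 at 22.5, GCLM at 15.04, HMOX1 at 9.93 and AKR1C3 at 0.627. The ranges of AKR1C1 and TXNRD1 overlapped, and so did those of AKR1B10 and GCLC. With PTDSS1i the order became AKR1C2 at 359, NQO1 at 223, TXNRD1 at 187, AKR1C1 at 170, AKR1B10 at 116, GCLM at 94.7, SRXN1 at 65.8, HMOX1 at 23.0, GCLC at 18.7 and AKR1C3 at 0.589 CPM per kb, and no neighbours overlapped.

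With PTDSS1i TXNRD1 stood above NQO1 in KYSE30, at 101 against 79.8 CPM per kb, the ranges being apart. GCLM at 14.0, GCLC at 11.9, HMOX1 at 10.1 and SRXN1 at 2.82 CPM per kb followed, and the ranges of GCLC and HMOX1 overlapped. The reductases AKR1C2, AKR1B10, AKR1C1 and AKR1C3 stood at 0.235, 0.197, 0.0531 and 0.0383 CPM per kb, and the ranges of AKR1C2 and AKR1B10 and those of AKR1C1 and AKR1C3 overlapped.

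**Figure D3:**
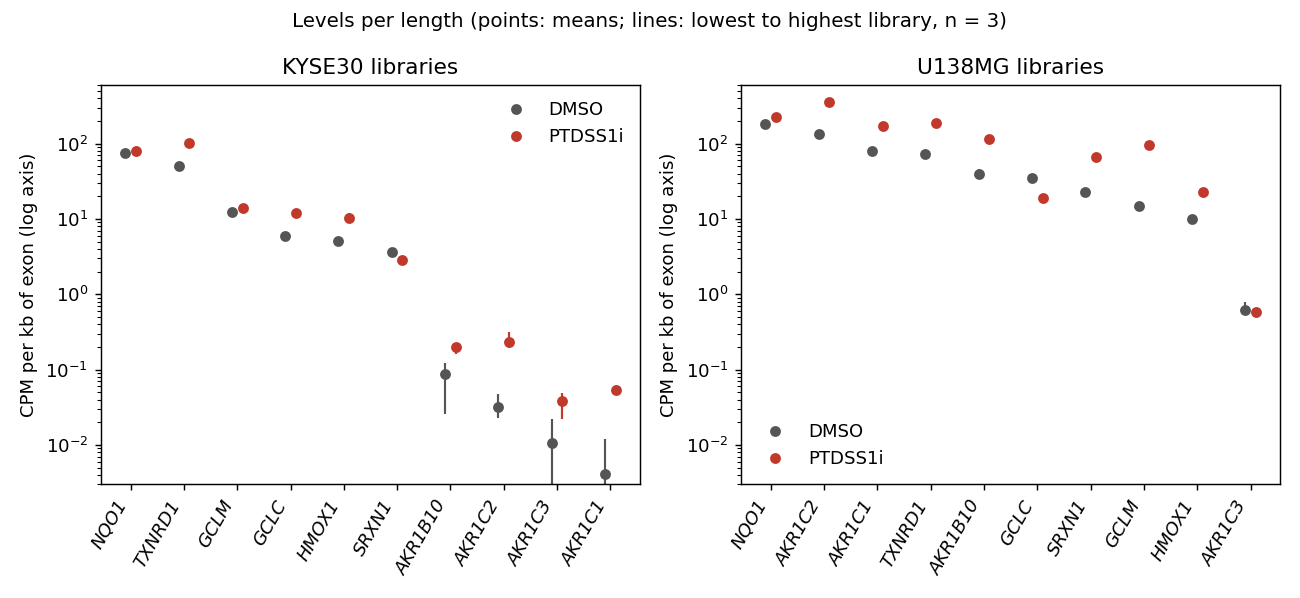
Levels of the 10 genes in CPM per kb of exon on log axes, in the order of their DMSO means in each line, with DMSO in grey, PTDSS1i in red and lines from the lowest to the highest of 3 libraries, drawn to the axis where the lowest is 0. The AKR1C2 mean goes from 134 to 359 CPM per kb in U138MG and from 0.0319 to 0.235 in KYSE30.

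The counts of the pathway lists below stand beside all genes tested, of which 30.1% were higher and 32.0% lower in KYSE30 and 33.9% higher and 33.6% lower in U138MG, with a median log2 fold change of -0.03 in each line. No list was tested as a set, and the lists were chosen with earlier results of these data known.

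Among the regulators of NRF2, the genes for its partners and for the adaptor protein p62 rose in both lines, while NFE2L2 rose slightly in KYSE30 and KEAP1 fell in U138MG. Of 12 such genes, 8 were higher, 0 lower and 4 not called in KYSE30, with a median log2 fold change of 0.55, and 10 were higher, 1 lower and 1 not called in U138MG, with a median of 0.62. NFE2L2 had a log2 fold change of 0.28 in KYSE30 (SE 0.051, edgeR adjusted p = 7.28e-05) and 0.02 in U138MG (SE 0.036, edgeR adjusted p = 0.621). KEAP1 had 0.05 (SE 0.055, edgeR adjusted p = 0.428) and, in U138MG, -0.49 (SE 0.063, edgeR adjusted p = 7.39e-08).

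SQSTM1, which encodes p62, a binder of KEAP1 and autophagy receptor, had means of 360 CPM with DMSO and 1356 CPM with PTDSS1i in KYSE30 and of 800 and 3272 CPM in U138MG. Its log2 fold changes were 2.02 and 2.18 (edgeR adjusted p = 1.04e-16 and 4.08e-27), and the difference of 0.11 between the lines was not called (edgeR adjusted p = 0.247). The small MAF genes MAFF, MAFG and MAFK, whose products pair with NRF2 and with BACH1, rose by 1.76, 0.90 and 1.18 in KYSE30 and by 2.45, 1.13 and 0.90 in U138MG. BACH1, the repressor, rose by 0.83 and 0.59.

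The other aldo-keto reductases were few. Of 9 listed, 3 were tested in KYSE30 (1 higher, 1 lower) and 7 in U138MG (4 higher, 2 lower), with medians of 0.56 and 0.40. AKR1B1, aldose reductase, had means of 103 and 422 CPM in U138MG, a log2 fold change of 2.18 (SE 0.105, edgeR adjusted p = 2.84e-05), and 0.79 and 1.11 CPM in KYSE30, with 0.56 (SE 0.290, edgeR adjusted p = 0.0974). AKR1A1, aldehyde reductase, rose by 0.63 and 0.40, and AKR7A2 fell by 0.28 and 0.36 in KYSE30 and U138MG.

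Of 8 genes that supply NADPH, the electron donor of these enzymes, 7 were higher and 0 lower in KYSE30, with a median of 0.58, and 7 higher and 1 lower in U138MG, with a median of 0.55. ME1, malic enzyme, rose by 0.98 and 1.29, and PGD, of the pentose phosphate pathway, by 0.72 and 1.03. TKT, transketolase, rose by 0.33 in KYSE30 and fell by 0.43 in U138MG.

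The genes of glutathione synthesis and use were divided. Of 21 tested in each line, 10 were higher and 6 lower in KYSE30, with a median of 0.02 that turned to -0.08 with library totals and to about 0 (-0.003) with upper-quartile scaling, and 13 were higher and 6 lower in U138MG, with a median of 0.38. CHAC1, which degrades glutathione, rose by 2.96 in KYSE30 and 4.36 in U138MG, from means of 2.39 and 0.849 CPM to 17.4 and 15.8 CPM. ABCC3, an exporter of conjugates, rose by 0.66 and 2.55, and OPLAH, which recycles oxoproline, by 1.11 and 0.45.

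Among the glutathione transferases, GSTM3 fell by 1.80 in KYSE30 and rose by 0.36 in U138MG, GSTP1 fell by 0.38 and 0.20, and GSTA4 fell by 1.45 in U138MG (in KYSE30 -0.15, edgeR adjusted p = 0.560). GGT1, which breaks down glutathione outside the cell, fell by 0.85 in U138MG. SLC7A11, the cystine transporter, was named after its values were seen, and it rose by 1.08 in KYSE30 and 2.02 in U138MG.

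Of 16 genes of thioredoxins, peroxiredoxins and sestrins and related enzymes tested in KYSE30, 3 were higher and 8 lower, beside 30.1% and 32.0% of all genes, with a median of -0.20, and of 14 tested in U138MG 6 were higher and 4 lower, with a median of 0.05 that turned to -0.10 with library totals and to -0.09 with upper-quartile scaling. TXN, the substrate of TXNRD1, fell by 0.26 in KYSE30 and rose by 0.74 in U138MG. SESN2, a stress-induced sestrin, rose by 0.86 and 1.75, while SESN1 fell by 0.57 and 0.59 and SESN3 fell by 1.52 in U138MG (in KYSE30 0.06, edgeR adjusted p = 0.749). PRDX5 rose by 0.65 in KYSE30 and 0.25 in U138MG, and PRDX6 fell by 0.69 in KYSE30 (in U138MG -0.05, edgeR adjusted p = 0.275).

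Of 12 genes of heme and iron handling, 6 were higher and 3 lower in KYSE30, with a median of 0.27, and 9 were higher and 2 lower in U138MG, with a median of 0.66. FTH1, the heavy chain of ferritin, rose by 1.03 in KYSE30 and 1.53 in U138MG, and ALAS1, the entry enzyme of heme synthesis, by 0.72 and 0.89. FECH, which inserts iron into heme, fell by 0.57 and 0.64. The heme transporter SLC48A1 fell by 0.97 in KYSE30, and the transferrin receptor TFRC rose by 1.83 in U138MG. The iron exporter SLC40A1 fell by 0.86 in U138MG and, from a mean of 1.79 CPM, by 0.70 in KYSE30.

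Other detoxification genes known as NRF2 targets moved both ways. Of 16 tested in KYSE30, 8 were higher and 6 lower, with a median of 0.17, and of 17 in U138MG 11 were higher and 4 lower, with a median of 0.61. OSGIN1 rose by 1.11 in KYSE30 and 1.51 in U138MG, CYP4F3 by 0.79 and 0.86, and CYP4F11, a related cytochrome, by 0.32 and 1.31. PTGR1, a prostaglandin reductase, fell by 1.10 in KYSE30 and rose by 0.72 in U138MG, the carbonyl reductase CBR3 fell by 0.99 and 0.31, and the aldehyde dehydrogenase ALDH3A1 fell by 0.92 in U138MG.

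Superoxide dismutases, catalase and related genes were the smallest list. Of 4 tested in KYSE30 1 was higher and 3 lower, with a median of -0.42, and of 5 in U138MG 2 were higher and 2 lower, with a median of -0.02. SOD2, the mitochondrial dismutase, had means of 261 and 1873 CPM in U138MG, a log2 fold change of 2.99 (SE 0.037, edgeR adjusted p = 1.22e-30), and was not analysed in KYSE30. CAT, catalase, rose by 0.60 in KYSE30 and fell by 0.30 in U138MG, SOD1 fell by 0.51 and 0.18, and PARK7 fell by 0.43 in KYSE30. GPX8 fell by 0.41 in KYSE30 and rose by 0.48 in U138MG.

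Over all lists 44 genes were higher and 27 lower of 92 tested in KYSE30, with a median of 0.13, and 62 were higher and 22 lower of 96 in U138MG, with a median of 0.42. All genes tested had 30.1% higher and 32.0% lower in KYSE30 and 33.9% and 33.6% in U138MG. With library totals the counts were 40 and 32 in KYSE30 and 55 and 31 in U138MG. Of 58 list genes called in both lines, 37 were higher in both, 8 lower in both and 13 went in opposite directions. The matching shares of all genes were not computed, so these counts are a description and cannot be set against a background. A difference between the lines was called for 70 of 95, beside 50.2% of all genes tested.

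**Figure D4:**
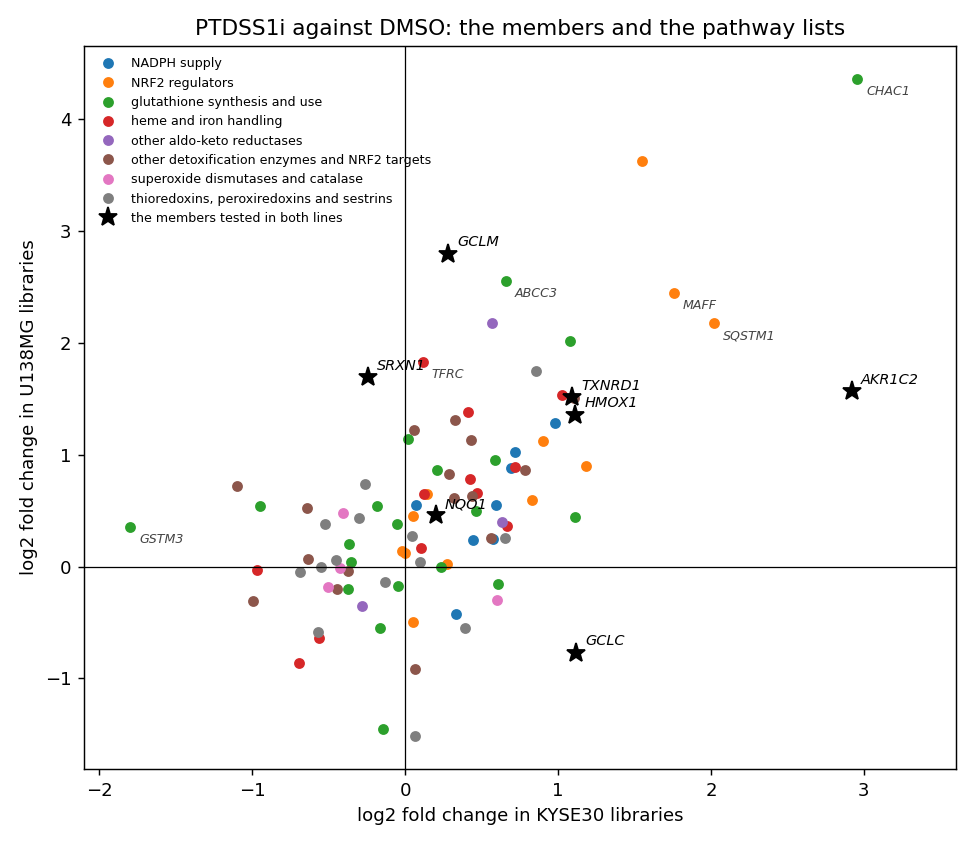
Log2 fold changes of PTDSS1i against DMSO in KYSE30 (horizontal) and U138MG (vertical) for the 89 pathway genes tested in both lines, coloured by list, and the 7 members tested in both (stars). GCLC lies below and SRXN1 left of the upper right quadrant, which holds the other 5 members and 49 of the pathway genes. Genes are placed there by sign, called or not, and the share of all genes in that quadrant was not computed.

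Over the 12 libraries the genes whose normalized levels ran closest to a member, by the distance between their log2 profiles after centring each gene on its mean, were sought among 11370 genes. For NQO1 they were CRIPT and PPP1R7, at distances of 0.277 and 0.278, and for HMOX1 they were ME1 and PIP4P1, at 0.586 and 0.602. For AKR1C1 the nearest, CDC42 and ALDH2, were at distances of 5.68 and 5.77 and did not come close. Their likeness to AKR1C1 lies in the step between the lines, since CDC42 and ALDH2 had 0.503 and 0.271 CPM with DMSO in KYSE30 and 453 and 317 CPM in U138MG. The libraries share line and batch, so these distances are a description.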

How the data were processed

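Each line has a table of read counts per gene, whole numbers that the authors deposited unnormalized. The submitters' processing notes name Trimmomatic, STAR, featureCounts and hg38. Versions, gene annotation and strand setting are not given in the sources used here. Groups came from the sample labels, and the libraries were not pooled. The members and the gene lists were chosen with earlier results of these data known.

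Tests used edgeR 4.0.16 under R 4.3.3: filterByExpr (minimum count 10, total 15), TMM, the robust quasi-likelihood test and a threshold of 0.05. The SE beside an edgeR value is its absolute log2 fold change divided by the square root of the test's F statistic. DESeq2 1.42.0 was an alternative. Differences between the lines came from a joint fit over genes of both tables. The edgeR tests within each line and of the interaction were tried on simulated data, and the other statistics were not. The chi-square of every replicate pair, divided by its degrees of freedom, was 2.29 or more, above sampling noise. Per-length levels and coding sequences used GENCODE annotation of GRCh38, which may not be the authors' annotation. Exon overlaps were counted without regard to strand use. The log2 CPM of the distances and of the replicate correlations used a prior count of 2, and the normalized CPM of the overlap statements used none.

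All 10 members are named. Of each list, in each line and direction, the 2 largest changes past the threshold with a mean of at least 5 CPM are named, as are NFE2L2, KEAP1, BACH1, SQSTM1 and the small MAF genes, and the 2 nearest genes of AKR1C1, NQO1 and HMOX1. Alternatives were other scalings, DESeq2, other filters, a fold threshold, a joint fit, summed AKR1C counts, a replicate block and each library left out.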

Additional observations from a re-analysis of the deposited data

Results flagged for a closer look

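The effect of PTDSS1i differed between the lines, by the edgeR test of the interaction, for the following genes, each given as the log2 change in U138MG minus that in KYSE30. Among the members the differences were -2.55 for AKR1C1, 0.21 for NQO1, 2.47 for GCLM, -1.94 for GCLC, 0.37 for TXNRD1 and 1.89 for SRXN1. That of AKR1C1 rests on 2 counts in the KYSE30 DMSO libraries, and its call carries no weight.

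Of the 43 list genes named, 42 could be tested and 33 differed, beside 50.2% of all genes tested. Apart from the regulators, they were picked for large changes within a line in these same data. Such a choice can favour genes that differ between the lines, so these shares cannot be compared. For regulators the values were 0.64 for MAFF, 0.17 for MAFG, -0.33 for MAFK, -0.28 for BACH1, -0.60 for KEAP1 and -0.31 for NFE2L2. Other reductases had -0.29 for AKR1A1 and 1.57 for AKR1B1. NADPH genes had 0.25 for ME1, 0.26 for PGD and -0.81 for TKT. Glutathione genes had 1.36 for CHAC1, 1.84 for ABCC3, -0.71 for OPLAH, 2.10 for GSTM3 and -1.35 for GSTA4.

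Heme and iron genes had 0.45 for FTH1, 0.89 for SLC48A1 and 1.66 for TFRC. Thioredoxin system genes had 0.95 for TXN, 0.84 for SESN2, -1.63 for SESN3, -0.45 for PRDX5 and 0.59 for PRDX6. Detoxification genes had 0.35 for OSGIN1, 0.94 for CYP4F11, 1.77 for PTGR1, 0.63 for CBR3 and -1.03 for ALDH3A1. The remaining values were -0.95 for CAT, 0.27 for SOD1, 0.36 for PARK7 and 0.84 for GPX8. Groups of 3 libraries are too small for the test of single libraries that stand apart.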

How the results depend on the processing

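Over 27 results and 400 values from alternatives other than a fold threshold, 361 kept direction and side of the threshold, 20 lost the call, 15 gained it and 4 changed sign, the cause being not tested. The tally includes AKR1C2 in KYSE30 and the differences of the 4 reductases between the lines, whose calls carry no weight. It also includes fits of the summed AKR1C counts, which are another feature, so it is no measure of robustness. The changes of sign were those of AKR1C3 in U138MG, which was never called on its own, at -0.0903 with library totals and -0.0887 with upper-quartile scaling, and, with a library left out, between -0.0425 (without DMSO replicate 1) and 0.253, with -0.0178 without DMSO replicate 2. The count of members lower in KYSE30, 1 (SRXN1), became 0 with DESeq2, without the low-count filter, with at least 10 counts in every library and without any single library (lowest and highest 0). Requiring a log2 fold change beyond 1 left 0 members lower in each line, 1049 genes higher and 1154 lower in KYSE30, 1446 and 2047 in U138MG, 3021 genes that differed in response and 8942 that differed with DMSO. With at least 10 counts in every library, 6 members were left that differed with DMSO, since the reductases drop out. The count of members that differed in response was 4 to 7 with a library left out. The difference of AKR1C2 gained a call with upper-quartile scaling (-1.50), DESeq2 (-1.43), no low-count filter (-1.33), and 5 of the libraries left out, and that of AKR1C3 with upper-quartile scaling (-1.94). The KYSE30 DMSO libraries held 13 and 3 counts of AKR1C2 and AKR1C3 in all, so these calls carry no weight.

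The samples were not treated as paired by replicate number in the main tests. Same-numbered libraries had correlations of 0.0754, 0.0721 and 0.0204 in KYSE30 and 0.00881, -0.00288 and 0.0484 in U138MG. Every KYSE30 library correlated best with its own number, a hint of pairing from the data that was not tested. With a replicate block 5081 genes were higher and 5377 lower in KYSE30, 6020 and 5920 in U138MG, and 6 and 8 members were higher. The difference of AKR1C2 between the lines was then -1.39, and its call carries no weight. AKR1C1, AKR1C3 and AKR1B10 did not pass the filter on low counts in KYSE30.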
